A study of Mus musculus with 6 samples.

Results

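The genes described here are 8 genes of intestinal goblet cells: Muc2, Tff3, Clca1, Fcgbp, Zg16, Agr2, Spdef and Spink4. They were chosen by name, as genes that make, fold or accompany the mucus, with earlier results of these data known, and no value entered the choice rule. A row of the expression table could be settled for all 8, among 12397 rows with a settled gene in a table of 22700 rows. Each of the 8 also passed the filter on low expression.

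The study sequenced RNA from the mucosa of the middle small intestine of C57BL/6 mice. The KO group was 3 mice without functional alkaline sphingomyelinase (alk-SMase, encoded by Enpp7), in which Cre recombinase had removed exon 2, and the WT group was 3 mice with the intact gene. The KO libraries were K79S, K82S and K86S, and the WT libraries were W83S, W89S and W90S. Each library came from 1 mouse. No treatment was given, and no age, sex or litter of the mice is given in the sources used here. Values are FPKM (fragment counts corrected for the length of the transcript and the size of the library), so levels of different genes could be set side by side.

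Goblet cells are the mucus-secreting cells of the intestinal epithelium, and arise from crypt progenitors of the secretory lineage under transcription factors such as Atoh1 and Spdef. Their granules hold MUC2, a very large gel-forming mucin that is folded in the endoplasmic reticulum, O-glycosylated in the Golgi apparatus and packed as a polymer that unfolds on release. Secreted with it are trefoil factor 3 (Tff3), the protease CLCA1, the Fc gamma binding protein (Fcgbp) and the lectin ZG16, which together with the mucin form the layer that keeps bacteria away from the epithelium.

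Sequences from RefSeq upstream of the transcription start were held for 4 of the 8 genes, Muc2, Fcgbp, Agr2 and Spdef. Those of Muc2, Fcgbp and Spdef are shown because the KO and WT values of these genes did not overlap, the first 2 being higher and the third lower in the KO libraries. Each line gives the 250 bases before the start (build GRCm38.p6, written 5′ to 3′ along the gene). Capitals mark every match, on either strand, to 4 short motifs. The first is CAGCTG, an E-box of the kind bound by basic helix-loop-helix factors. The second, GTTTAC, is a core of forkhead sites. The others are the element TATAAA that often lies shortly before a start site, and a variant of that element which begins a base earlier, ATATAA.
Muc2 (chr7:141690090-141690339, plus strand): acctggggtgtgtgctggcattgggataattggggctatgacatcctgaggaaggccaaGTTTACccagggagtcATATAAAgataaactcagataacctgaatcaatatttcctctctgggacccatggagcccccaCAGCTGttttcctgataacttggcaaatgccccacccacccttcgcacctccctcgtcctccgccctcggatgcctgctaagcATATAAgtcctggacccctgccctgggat
Fcgbp (chr7:28070986-28071235, plus strand): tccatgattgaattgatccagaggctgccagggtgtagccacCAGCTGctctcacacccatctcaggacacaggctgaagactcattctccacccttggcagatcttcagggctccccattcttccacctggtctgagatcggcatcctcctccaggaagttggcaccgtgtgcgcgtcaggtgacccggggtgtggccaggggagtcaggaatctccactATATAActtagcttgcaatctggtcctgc
Spdef (chr17:27728952-27729201, minus strand): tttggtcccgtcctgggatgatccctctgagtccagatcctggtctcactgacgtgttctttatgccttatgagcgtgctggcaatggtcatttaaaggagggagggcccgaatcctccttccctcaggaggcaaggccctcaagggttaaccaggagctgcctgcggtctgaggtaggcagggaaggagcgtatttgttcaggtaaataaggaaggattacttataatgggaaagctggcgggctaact
The Muc2 window held CAGCTG from 112 bases, GTTTAC from 191 bases, and ATATAA from 175 and from 29 bases before the start. A TATAAA match at 174 bases overlaps the farther ATATAA and stands in the same run of capitals. The Fcgbp window held CAGCTG from 208 bases and ATATAA from 29 bases before the start, the same distance as in Muc2. No match was found in the windows of Spdef and Agr2. Among 32851 windows of this length, CAGCTG occurred in 13%, GTTTAC in 6.92%, TATAAA in 12.4% and ATATAA in 9.1%. The letters searched were chosen after the expression values were known, and a match is a description of the sequence only.

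In the deposited table the identifiers stood beside the rows of other genes, and the names were restored from the ranks of the values. The offsets between the ranks were read from the number of printed decimals in earlier work on these data. The counts that follow are therefore no independent check, and they concern neighbours of each gene, not that gene itself. Genes with 1 annotated transcript are mostly printed with at most 6 decimals. Among the genes with 1 transcript within 100 ranks of Muc2, this held for 65 of 65 after the names were restored, and for 23 and 24 of 65 when the names were moved by 1 row. Around the other 7 genes it likewise held for every neighbour with 1 transcript, 53 for Spdef to 82 for Spink4. The knocked-out gene itself, Enpp7, had 605 (K79S), 129 (K82S) and 670 FPKM (K86S) against 406 (W83S), 667 (W89S) and 495 FPKM (W90S). The FPKM of a whole gene does not test the loss of 1 exon, so in these values the genotype of each library rests on its label. The paper reports that every mouse was typed by PCR and by alk-SMase activity in feces.

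Some libraries stood apart from the rest. W83S held genes of the stomach and pancreas, with 41042 FPKM summed over 8 gastric genes (0.0479 to 5.94 in the other libraries) and 10229 FPKM over 4 pancreatic genes (13.2 to 83.8 in the others). K82S had the lowest sum over 10 enterocyte genes, 25117 FPKM against 34339 to 41724 in the other libraries. Results were therefore also computed without K82S, without W83S and without both. Over all genes, 1 of 13089 tested rows passed the thresholds (limma, Benjamini-Hochberg adjusted p under 0.05 and a fold above 1.5 or below 2/3). That row was Gm29008, at 0 in each KO library and at 4.26, 4.48 and 4.75 FPKM in W83S, W89S and W90S. Without K82S 1184 rows passed, 51 higher and 1133 lower in KO.

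The mucus genes ranged widely in level, from 7.03 FPKM (Muc2 in W89S) to 7748 FPKM (Tff3 in W89S). Together the 8 genes summed to 8716 (K79S), 13854 (K82S) and 7126 FPKM (K86S) against 7437 (W83S), 13714 (W89S) and 7882 FPKM (W90S). This was 1.69% to 2.97% of the summed FPKM in the KO libraries and 1.54% to 2.77% in the WT libraries. The groups overlapped, and the highest library of each, K82S and W89S, stood well above the other 4. In mucosa as a whole, fewer goblet cells and less RNA per goblet cell cannot be told apart.

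By mean FPKM over the 6 libraries the order was Tff3 (4634), Zg16 (3168), Clca1 (649), Spink4 (561), Fcgbp (469), Agr2 (212), Muc2 (84.4) and Spdef (9.94). Between neighbours in this order, only Zg16 and Clca1 had ranges that did not overlap. Tff3 exceeded Zg16 in 5 of 6 libraries and Clca1 exceeded Spink4 in 3 of 6. Small secreted proteins thus led the order, while the transcript of the gel-forming mucin came seventh and the transcription factor last.

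None of the 8 genes passed the thresholds between KO and WT (0 of 8, against 0.00764% of all rows). In the limma fit 1 of 8, Fcgbp, had an unadjusted p under 0.05, a share of 12.5%, beside 12.5% of all rows. The groups did not overlap in 3 of 8 genes, against 17.2% of all rows. Muc2 and Fcgbp were higher in all KO libraries (5.9% of all rows were) and Spdef was lower in all of them (11.3% of all rows were). This split of all rows depended on the scaling, with 14.3% higher and 5.84% lower when libraries were scaled to equal sums, and 3.58% higher and 14% lower when scaled to pan-epithelial genes. Fold changes were positive in 4 genes and negative in 4, with a median of 0.06 on the log2 scale beside -0.06 over all rows. Without K82S the groups did not overlap in 6 of 8 genes, against 43.9% of all rows, with Tff3, Agr2 and Spink4 joining Spdef on the lower side. Without W83S it was the same 3 genes, against 28.4% of all rows.

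**Figure D1:**
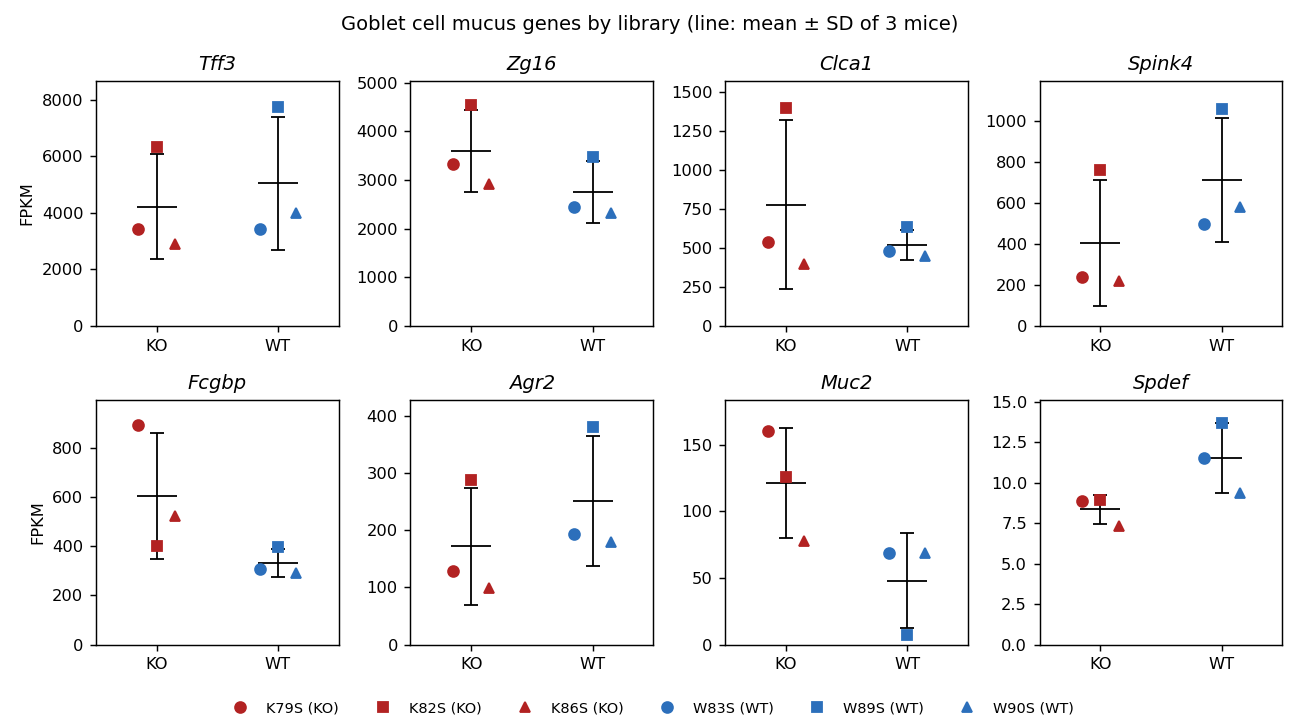
FPKM of the 8 goblet cell mucus genes in each library (linear axes from 0, a panel for each gene; red, KO; blue, WT; line and bar, mean ± SD of 3 mice). Muc2 and Fcgbp lie higher and Spdef lower in all KO libraries, while Tff3, Zg16, Clca1, Spink4 and Agr2 have the highest value of both groups in K82S and W89S.

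Muc2 encodes the mucin that forms the intestinal gel. Its FPKM was 160 (K79S), 126 (K82S) and 77.3 (K86S) against 68.3 (W83S), 7.03 (W89S) and 68.5 (W90S). Each KO value exceeded every WT value, narrowly in K86S, and W89S lay far below the rest. The KO mean was 121 ± 41.4 FPKM and the WT mean 47.9 ± 35.4 (SD, n = 3). This gave a log2 fold change of 1.79 (SE 0.85, 95% interval -0.25 to 3.82, limma, Benjamini-Hochberg adjusted p = 0.408). An exact permutation test (two-sided) returned p = 0.1, the smallest that 3 libraries against 3 allow. Without W89S the log2 fold change was 0.75 (adjusted p = 0.541 from limma), and without K82S and W83S it was 2.25 (adjusted p = 0.304). The groups remained apart when libraries were scaled to equal sums, by median ratios to the geometric mean of the libraries, or to the geometric mean of 10 pan-epithelial genes such as Epcam and Krt8.

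The low value of Muc2 in W89S was unlike that of the other mucus genes. W89S held the highest FPKM of Tff3, Agr2, Spdef and Spink4, and the second highest of Clca1 and Zg16. The next lowest value of Muc2 was 9.71 times that in W89S. Among 3605 rows with at least 10 FPKM in each of the other 5 libraries, Muc2 was the only one whose value in W89S fell as far below its next lowest. The same count for the other libraries, each in turn, was 0 to 2 rows. The cut-off was the drop of Muc2 itself, so Muc2 met it by definition. Gm9320 fell nearly as far, to 3.49 FPKM in W89S from 30.7 or more elsewhere. Below the limit of 10 FPKM, AC140267.1 fell further, to 9.8e-05 FPKM in W89S from 7.48 or more elsewhere.

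The annotated model of Muc2 is in pieces. Muc2 lies on the plus strand of chromosome 7 from 141690340 to 141754693 (GRCm38, GENCODE M21), a span of 64354 bp. None of its 8 annotated transcripts runs from one end to the other, and they measure 241 to 2926 nucleotides. The 5′ group of 6 ends at 141704611 and the 3′ group of 2 begins at 141744612, with 40000 bp between them that hold no annotated exon. The exons of all 8 cover 7127 nucleotides. The annotation behind the deposited values is not given in the sources used here, and which transcript was low in W89S cannot be read from values per gene. The part of this gene model in the low value and in the low rank of Muc2 was not tested.

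Fcgbp, on the plus strand of chromosome 7 from 28071236 to 28120862, encodes a large mucus protein with repeated von Willebrand domains like those of MUC2. It was the only other gene that was higher in every KO library. Its FPKM was 894 (K79S), 400 (K82S) and 523 (K86S) against 308 (W83S), 397 (W89S) and 291 (W90S). K79S was the highest, and K82S lay just above W89S. The KO mean was 606 ± 257 FPKM and the WT mean 332 ± 57 (SD, n = 3). In limma the log2 fold change was 0.80 (SE 0.33, 95% interval 0.02 to 1.57, unadjusted p = 0.046 and adjusted p = 0.393 from limma). The exact permutation test gave p = 0.1. Without K82S it was 1.05 (adjusted p = 0.0849 from limma), and without K79S 0.48 (adjusted p = 0.76). Scaled by median ratios or to the pan-epithelial genes, the groups overlapped.

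Spdef (chromosome 17, 27714352 to 27728955, minus strand) encodes the ETS transcription factor that drives goblet cell maturation, and was the gene lower in every KO library. Its FPKM was 8.84 (K79S), 8.94 (K82S) and 7.34 (K86S) against 11.5 (W83S), 13.7 (W89S) and 9.37 (W90S). The gap between the groups was narrow, from 8.94 in K82S to 9.37 in W90S. The KO mean was 8.37 ± 0.897 FPKM and the WT mean 11.5 ± 2.16 (SD, n = 3). On the log2 scale the difference was -0.41 (SE 0.17, 95% interval -0.82 to 0.00, unadjusted p = 0.0513 and adjusted p = 0.393 from limma), and the exact permutation test gave p = 0.1. Scaled to equal sums or by median ratios, the groups overlapped.

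Agr2 and Spink4 followed each other across the libraries. Agr2 is a protein disulfide isomerase of the endoplasmic reticulum that is needed for MUC2 folding. It lies on the plus strand of chromosome 12 from 35992907 to 36004087. Its FPKM was 129 (K79S), 289 (K82S) and 98.9 (K86S) against 193 (W83S), 382 (W89S) and 179 (W90S). K79S and K86S lay below all WT libraries, and K82S lay within their range. This gave a log2 fold change of -0.61 (SE 0.47, 95% interval -1.74 to 0.52, adjusted p = 0.595 from limma). It was -1.06 without K82S (adjusted p = 0.147) and -0.26 without W89S (adjusted p = 0.835).

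Spink4, a Kazal-type serine protease inhibitor of goblet cells, had the largest negative fold change of the 8. It lies on the plus strand of chromosome 4 from 40920052 to 40931395. Its FPKM was 239 (K79S), 761 (K82S) and 221 (K86S) against 500 (W83S), 1061 (W89S) and 583 (W90S). Again K79S and K86S were below every WT library, and K82S was above W83S and W90S. The KO mean was 407 ± 307 FPKM and the WT mean 715 ± 303 (SD, n = 3). In limma the log2 fold change was -0.98 (SE 0.54, 95% interval -2.27 to 0.31, adjusted p = 0.452 from limma), with p = 0.3 in the exact permutation test. Without K82S it was -1.55 (adjusted p = 0.0524 from limma). Without K82S and W83S it was -1.77 (adjusted p = 0.0497), the only setting in which any of the 8 genes passed, one in which 1111 of all rows passed as well.

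Tff3, the trefoil peptide that protects and repairs the epithelium, was the most abundant of the 8. Its gene, with 1 annotated transcript, spans 31125306 to 31129646 of chromosome 17 (minus strand). Its FPKM was 3418 (K79S), 6337 (K82S) and 2895 (K86S) against 3420 (W83S), 7748 (W89S) and 3987 (W90S). K79S and W83S were level, and the groups overlapped. On the log2 scale the difference was -0.25 (SE 0.43, 95% interval -1.27 to 0.77, adjusted p = 0.823 from limma). Its sign turned without W89S, to 0.11 (adjusted p = 0.924).

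Zg16, a lectin that binds Gram-positive bacteria, had 3326 (K79S), 4538 (K82S) and 2907 FPKM (K86S) against 2453 (W83S), 3474 (W89S) and 2314 FPKM (W90S). W89S lay above K79S and K86S, so the groups overlapped. This gave a log2 fold change of 0.38 (SE 0.27, 95% interval -0.26 to 1.03, adjusted p = 0.551 from limma). Without W89S, and also when libraries were scaled to the pan-epithelial genes, each KO value exceeded every WT value. Zg16 (chromosome 7, 127050156 to 127087328, minus strand) is overlapped by Gm44939 and Gm22747 on the other strand, and the sources used here do not say whether strand was used in counting.

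Clca1, the protease that processes the mucin gel, had 540 (K79S), 1394 (K82S) and 396 FPKM (K86S) against 483 (W83S), 631 (W89S) and 451 FPKM (W90S). Without K82S the other 5 libraries lay between 396 and 631 FPKM. In limma the log2 fold change was 0.37 (SE 0.47, 95% interval -0.74 to 1.49, adjusted p = 0.753 from limma), and it turned to -0.16 without K82S (adjusted p = 0.737). Clca1 (chromosome 3, 145003817 to 145032776, minus strand) has close relatives beside it, and how reads shared by such genes were assigned is not given in the sources used here. The exact permutation test gave p = 0.4 for Agr2, 0.5 for Tff3, 0.3 for Zg16 and 0.8 for Clca1.

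**Figure D2:**
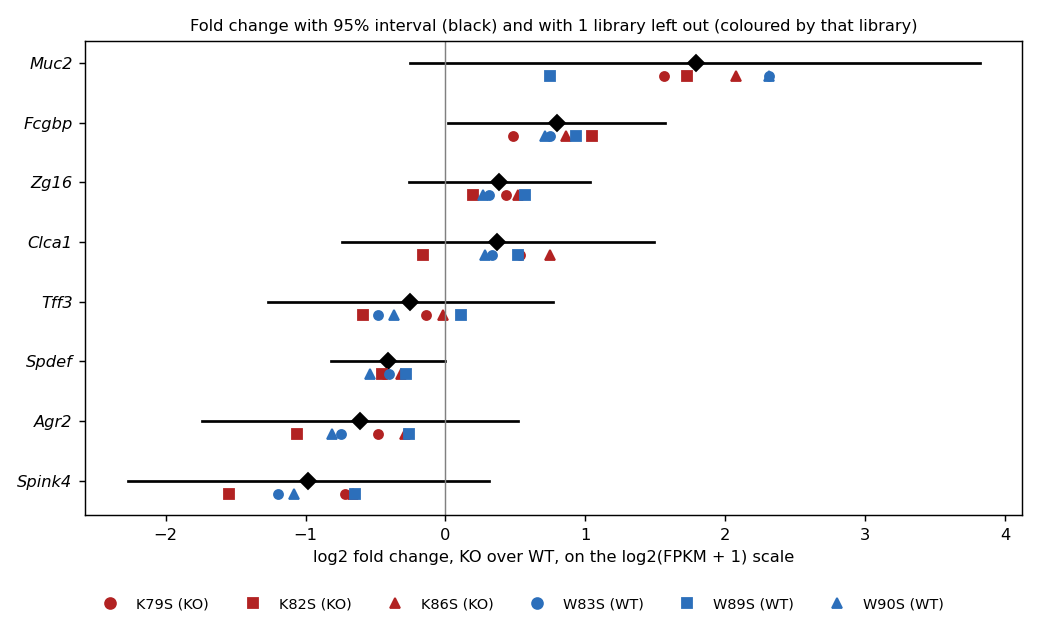
log2 fold change of each gene, KO over WT, on the log2(FPKM + 1) scale (black diamond and line, all 6 libraries with 95% interval; coloured symbols, value with that library left out). The interval reaches 0 or beyond for every gene but Fcgbp, whose lower end is 0.02, Muc2 moves most without W89S (0.75) and Clca1 and Spink4 most without K82S (-0.16 and -1.55).

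The genes fell into different profiles across the libraries. In 5 of the 8, namely Tff3, Zg16, Agr2, Spink4 and Clca1, the 2 highest libraries were K82S and W89S, 1 from each genotype. The share of 62.5% stands beside 12.4% of all rows kept by the filter (1622 of 13089). Spdef was highest in W89S, Fcgbp in K79S and Muc2 in K79S. Of 19 other goblet cell genes 6 had the same pair on top, as did 4 of 10 pan-epithelial genes.

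Between pairs of genes, the likeness of profiles was measured as the root mean square difference of log2(FPKM + 1) centred on each gene's mean over the 6 libraries. The closest pairs were Tff3 with Agr2 (0.24), Agr2 with Spink4 (0.26) and Clca1 with Zg16 (0.36). The farthest were Muc2 with Spink4 (2.03) and Muc2 with Agr2 (1.88). Among the 8, Fcgbp was nearest to Zg16 (0.51) and Spdef (0.69), and stood 0.82 from Clca1 and 1.31 from Muc2. Nearer to it, among 5213 genes compared with Fcgbp alone, were Slc6a19 (0.12) and Npc1l1 (0.17), which are not mucus genes. Over all 9681 genes that varied enough to be compared, those closest to the mean profile of the 8 were Sort1 (0.05), Tk2 (0.06), Gm49467 (0.07), Gm48016 (0.07) and Zfp36l2 (0.08). Opposite profiles partly cancel in this mean, whose own SD over the libraries was 0.34.

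**Figure D3:**
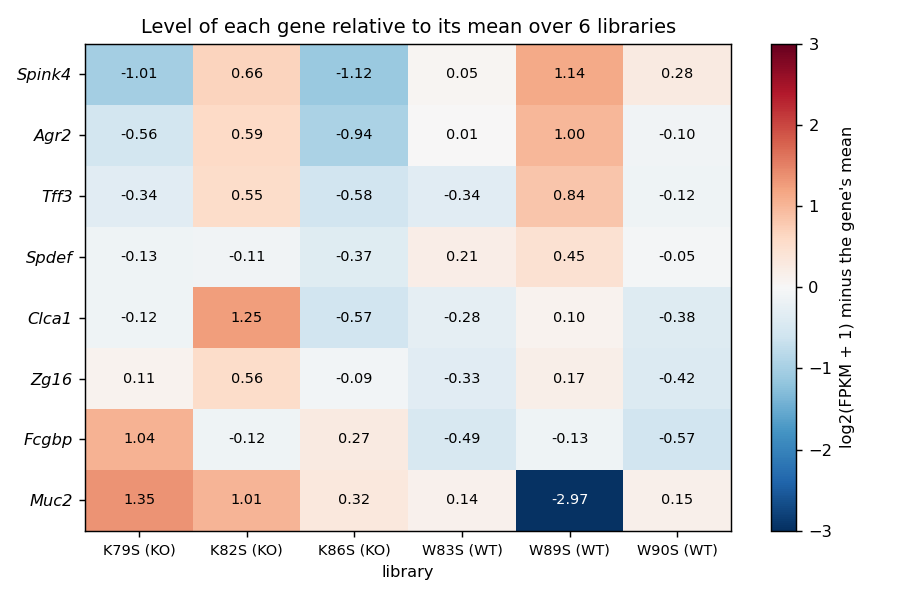
Level of each gene in each library relative to its own mean over the 6 libraries, as log2(FPKM + 1) minus that mean (red, above; blue, below; the number is the difference). K82S and W89S are red for Spink4, Agr2, Tff3, Clca1 and Zg16, and Muc2 in W89S is the deepest value at -2.97.

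Ratios of 2 genes within a library do not depend on how the library was scaled. Some, such as Clca1 to Spink4, separated the groups although neither gene did so alone. Others that separated them hold Muc2, Fcgbp or Spdef, whose own levels did not overlap. Of the 28 ratios among the 8 genes, 11 had no overlap between KO and WT. Over all 81440703 pairs of rows above 0 in each library, 18.8% had none. The ratios share genes, so the 28 are not independent, and those named here were picked after their values were seen.

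Clca1 relative to Spink4 was 2.26 (K79S), 1.83 (K82S) and 1.79 (K86S) against 0.967 (W83S), 0.594 (W89S) and 0.773 (W90S). Every KO library thus held more Clca1 than Spink4 transcript per length, and every WT library less. Zg16 relative to Spink4 was 13.9, 5.96 and 13.1 in the KO libraries and 4.91, 3.27 and 3.97 in the WT libraries. The differences of the mean log2 ratios were 1.35 and 1.36.

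Other ratios without overlap set the same genes against Agr2 and Spdef. Clca1 relative to Agr2 was 4.18 (K79S), 4.82 (K82S) and 4 (K86S) against 2.5 (W83S), 1.65 (W89S) and 2.52 (W90S). Zg16 relative to Agr2 was 25.8, 15.7 and 29.4 in the KO libraries and 12.7, 9.09 and 13 in the WT libraries, with K82S nearest to WT. Zg16 relative to Spdef was 376, 507 and 396 in the KO libraries and 214, 254 and 247 in the WT libraries. Tff3 relative to Agr2 overlapped, and so did Zg16 relative to Clca1, with 6.16, 3.26 and 7.34 in KO and 5.08, 5.51 and 5.13 in WT.

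**Figure D4:**
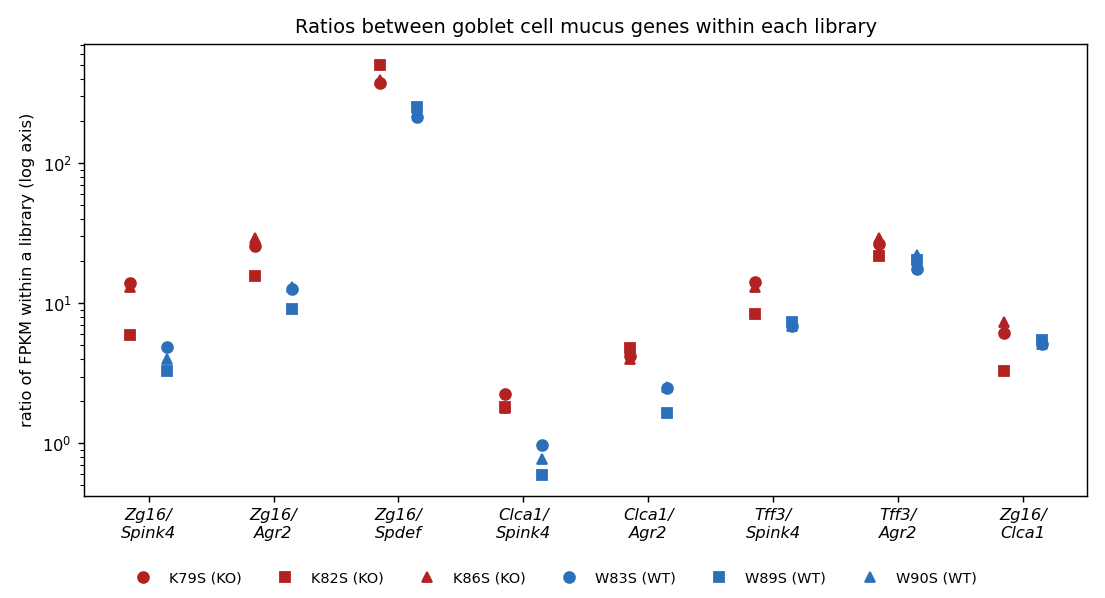
Ratio of the FPKM of 2 genes within a library, for 8 of the 28 pairs (log axis; red, KO; blue, WT; 1 symbol per library). Ratios of Zg16 and Clca1 to Spink4, Agr2 and Spdef, where shown, lie higher in all KO libraries, whereas Zg16 to Clca1 overlaps.

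Values also differed with transcript length. By their longest annotated transcript, Spink4 (0.4 kb), Tff3 (0.5 kb), Zg16 (0.7 kb) and Agr2 (0.9 kb) are short, Clca1 (3.7 kb) is longer and Fcgbp (7.9 kb) is the longest. Classes of length were formed from genes with a settled row and at least 1 FPKM in every library. Over the 2286 of these with a longest transcript under 1 kb, the median of centred log2(FPKM + 1) was -0.42, 0.19 and -0.32 in K79S, K82S and K86S. It was 0.09, 0.27 and 0.24 in W83S, W89S and W90S. K79S and K86S were the lowest libraries, as in Agr2 and Spink4, whereas W90S lay above K82S, unlike in these genes. Over the 961 genes of 6 kb or more it was 0.07, 0.02 and 0.07 in the KO libraries and -0.06, -0.05 and -0.04 in the WT libraries. The median log2 fold change was -0.39 for the genes under 1 kb and 0.12 for those of 6 kb or more. Zg16 and Spink4, both short, had fold changes of opposite sign, 0.38 and -0.98. The part of transcript length in the fold changes of the mucus genes was not tested. Nor was it tested for ratios that cross these classes, such as Clca1 to Spink4 and to Agr2.

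**Figure D5:**
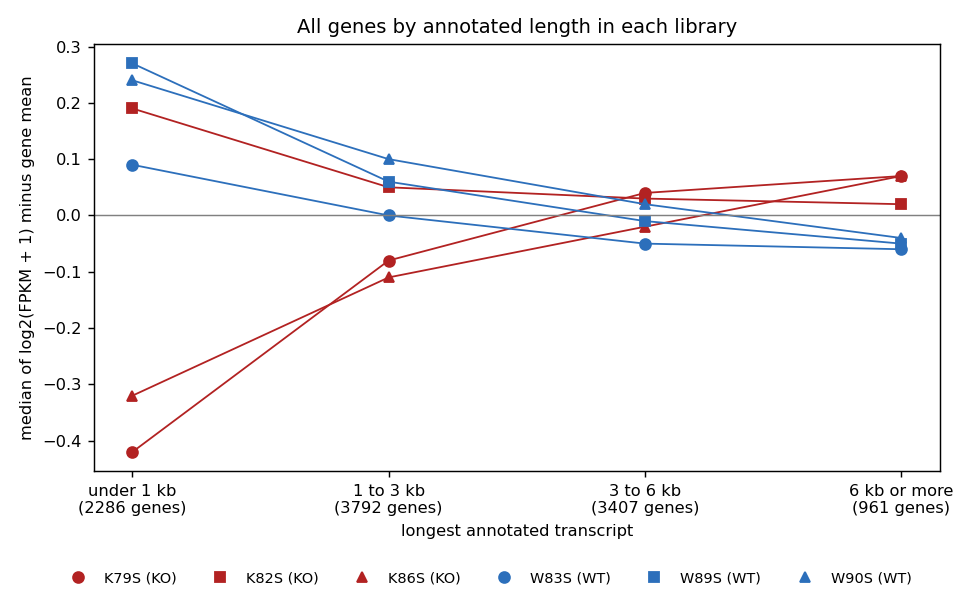
Median over settled genes with at least 1 FPKM in every library of log2(FPKM + 1) minus each gene's mean, in 4 classes of longest annotated transcript (1 line per library; red, KO; blue, WT). Below 1 kb K79S and K86S lie at -0.42 and -0.32 and the other 4 libraries at 0.09 to 0.27, and from 6 kb the KO libraries lie above the WT libraries.

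Other steps of mucus production were described by lists of genes. No gene of these lists passed the thresholds in either direction. Of 10 transcription factors of the goblet lineage, 3 had positive and 7 negative fold changes, with a median of -0.19. Of those with negative fold changes, Foxa1, Foxa2, Foxa3, Creb3l1, Xbp1 and Bhlha15 had their highest value in W83S, the library with gastric genes. Foxa2 had 5.92 FPKM in W83S and 0.604 to 1.22 FPKM in the other libraries. Creb3l4 was highest in K82S. The part of W83S in this median was not tested. Klf4, a factor of terminal goblet differentiation, averaged 190 ± 28.8 FPKM in KO against 136 ± 37.4 in WT, and Xbp1, which supports secretory cells under folding load, had 45.5 ± 0.907 and 46.1 ± 7.31 FPKM (SD, n = 3). Foxa3, a forkhead factor, averaged 8.22 ± 1.6 FPKM in KO against 12.3 ± 5.32 in WT, with its highest value in W83S.

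Of 21 enzymes of mucin O-glycosylation 17 had a settled row, with a median log2 fold change of 0.08, 11 positive and 6 negative. B4galnt2, which adds the terminal sugar of the Sda antigen to intestinal glycans, had 205 (K79S), 200 (K82S) and 203 FPKM (K86S) against 168 (W83S), 167 (W89S) and 178 FPKM (W90S). Its groups did not overlap, with a log2 fold change of 0.24 (SE 0.15, adjusted p = 0.491 from limma). They overlapped when libraries were scaled to the pan-epithelial genes. With that scaling 1 of the 17 enzymes was higher and 1 lower in every KO library, against 3.58% and 14% of all rows. Scaled to equal sums 3 of the 17 were higher in every KO library, and by median ratios 2, against 14.3% and 9.32% of all rows. Galnt1, which starts O-glycan chains, averaged 31.3 ± 5.03 FPKM in KO against 27.8 ± 2.71 in WT (SD, n = 3). The groups did not overlap in 2 of the 17 enzymes, against 17.2% of all rows, namely B4galnt2 and Chst4, a sulfotransferase named after its values were seen, with 7.7 ± 0.561 FPKM in KO and 5.17 ± 0.356 FPKM in WT (log2 fold change 0.50, SE 0.12, adjusted p = 0.393 from limma). Summed over the 17 enzymes, the KO libraries held 442 to 465 FPKM and the WT libraries 392 to 419 FPKM. Without B4galnt2, the most abundant of them, the other 16 overlapped, at 237 to 265 FPKM in KO and 225 to 246 FPKM in WT.

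Of the genes for protein folding in the secretory pathway 13 of 14 were settled, 4 with positive and 9 with negative fold changes (median -0.22). P4hb, a protein disulfide isomerase, averaged 832 ± 275 FPKM in KO against 842 ± 247 in WT, and the chaperone Hspa5 had 109 ± 24.1 and 139 ± 27.7 FPKM (SD, n = 3). K82S and W89S had the 2 lowest sums of this list, 1342 and 1208 FPKM against 1553 to 1875 FPKM in the other libraries. This order rested on P4hb. Without it the other 12 genes summed to 673 (K79S), 805 (K82S) and 716 FPKM (K86S) against 898 (W83S), 644 (W89S) and 839 FPKM (W90S), with K82S the highest of the KO libraries.

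Of the other goblet cell genes 19 of 20 were settled and 18 tested, 6 with positive and 12 with negative fold changes (median -0.16). Of the negative ones, Rep15, Mlph, Capn8, Capn9, Sytl2 and Rab27a were highest in W83S, and the part of that library was not tested. The groups did not overlap in 1 of the 18, against 17.2% of all rows. This was Rep15, with 8.13, 9.22 and 7.43 FPKM in the KO libraries and 25.6, 12.5 and 10.6 FPKM in the WT libraries. Guca2a, the hormone guanylin, had 819 (K79S), 1012 (K82S) and 404 FPKM (K86S) against 390 (W83S), 1880 (W89S) and 600 FPKM (W90S), highest again in K82S and W89S. Scin, an actin-severing protein, averaged 111 ± 35 FPKM in KO against 84.6 ± 35.4 in WT (SD, n = 3).

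Membrane mucins of the brush border, which enterocytes mainly make, had positive fold changes in 4 of 5 settled genes (median 0.38). Muc3 had 1380 (K79S), 894 (K82S) and 1027 FPKM (K86S) against 786 (W83S), 736 (W89S) and 612 FPKM (W90S), without overlap (log2 fold change 0.61, SE 0.23, adjusted p = 0.393 from limma). The groups did not overlap in 2 of the 5, both higher in KO, against 5.9% of all rows. With libraries scaled to equal sums or by median ratios, 3 of the 5 were higher in every KO library, against 14.3% and 9.32% of all rows. Scaled to the pan-epithelial genes, each of the 5 overlapped, while 3.58% of all rows were higher. Muc13 averaged 1076 ± 302 FPKM in KO against 801 ± 186 in WT (SD, n = 3), with overlap. Of the gel-forming mucins of other organs, Muc5ac had 152 FPKM and Muc6 22.4 FPKM in W83S, and both were under 1 FPKM in the other 5 libraries. Muc2 had 68.3 FPKM in W83S and 68.5 FPKM in W90S.

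Markers of neighbouring cells varied beside the mucus genes. Each of the 10 Paneth cell genes, of which Ang4 also stands among the goblet cell genes, had negative fold changes, and 0 of them passed. Their median was -1.64, beside -0.06 over all rows. Reg3g was at -0.09, with a higher mean in KO (1271 FPKM) than in WT (1085 FPKM), and Guca2b was lowest in K82S (788 FPKM). The 10 genes summed to 2894 (K79S), 8739 (K82S) and 4097 FPKM (K86S) against 5768 (W83S), 13529 (W89S) and 11620 FPKM (W90S). Defa24, a defensin, had 300, 2109 and 588 FPKM in the KO libraries and 1236, 3750 and 3196 FPKM in the WT libraries, so that K79S and K86S were lowest as for Spink4 and Agr2. Enterocyte genes summed to 38963 (K79S), 25117 (K82S) and 41724 FPKM (K86S) against 34540 (W83S), 34339 (W89S) and 38759 FPKM (W90S). Pan-epithelial genes summed to 5539 to 8644 FPKM in KO and 5596 to 8119 FPKM in WT, highest in K82S and W89S. The part of cell makeup in the values of the mucus genes was not tested.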

How the data were processed

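RNA of the middle small intestinal mucosa from 3 KO and 3 WT mice was measured, with 1 library per mouse. Per the labels and methods, single-end reads of 50 bp were trimmed (trim-galore), aligned to mm10 (HISAT2) and quantified per gene (StringTie). The values that the authors deposited are FPKM, 1 per gene and library, scaled to gene length and mapped reads. Tool versions, the annotation, the use of strand and any further normalization of these values are not given in the sources used here. Column sums were 393152 (K79S), 465901 (K82S) and 421135 FPKM (K86S) against 483474 (W83S), 495362 (W89S) and 473383 FPKM (W90S). Each KO sum lay below every WT sum, and the main fit used the values without rescaling. FPKM keeps no record of the reads behind a value, so no counting interval was given, and precision rests on the spread between 3 mice. The labels do not say whether mice shared a litter or cage, and p-values measure only the spread between these libraries. There were 0 unmapped columns.

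Identifiers were returned to their rows by rank. The identifier ranked by K79S belongs to the row ranked by W83S, with offsets that were read from printed decimals in earlier work on these data. Of 22700 rows 12397 received a name, down to 0.954 FPKM in W83S. Of 3649 named rows with 1 annotated transcript 99.7% were printed with at most 6 decimals, and of 8748 with several 5.8%, against 45.9% and 41.0% as deposited.

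The filter took out rows that were below 1 FPKM in more than 4 libraries, which left 13089. On these, limma 3.58.1 (R 4.3.3, mean-variance trend, all 6 libraries, no covariate) was run on log2(FPKM + 1), with Benjamini-Hochberg adjustment over all 13089 rows. To pass, a row needed an adjusted p under 0.05 together with a fold of more than 1.5 or less than 2/3. A fold change on the log2(FPKM + 1) scale understates the change of low genes. For the 8 genes an exact permutation test (two-sided, smallest p 0.1) was added. The fit was tested on simulated data of 13089 rows, 200 of them shifted by 2 in log2 units. At an SD of 0.2 it recovered 200, with 4 unchanged rows called, and at each row's own SD 156, with 5 unchanged rows called. Rows were drawn independently of each other, and smaller shifts were not simulated. Recovery at the fold changes seen in the 8 genes is therefore not known from this test. Other steps used Python 3.11.15, with pandas 2.3.3, numpy 2.4.6, scipy 1.17.1 and matplotlib 3.10.9.

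The text names the 8 mucus genes, genes taken from the 3 with the highest mean FPKM of each of 20 other lists, genes past the thresholds, and the 5 genes closest to the mean profile of the 8. Other genes, such as Chst4, Rep15 and Foxa2, were named after their values were seen. Lists and members were chosen with earlier results of these data known, so they are not independent evidence. Alternatives covered pseudocounts of 0.1 and 0.01, filters, scalings, the form of the limma fit and libraries left out.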

Additional observations from a re-analysis of the deposited data

How the results depend on the processing

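Each result was recomputed under 19 alternatives (20 for the median of the 8 genes). With pseudocounts of 0.1 and 0.01, 0 rows passed (1636 and 1619 had an unadjusted p under 0.05), and with limma's array weights 2 rows passed. With 1 library left out, the number of rows that passed ran from 0 to 1184, the latter without K82S, and without K82S and W83S together it was 1111. Of the mucus genes, 0 passed in each alternative but the last, in which 1, Spink4, passed. Their median log2 fold change ran from -0.30 to 0.31 with 1 library left out, was -0.33 without K82S and W83S together, and was -0.25 without Muc2. With 1 library left out, the log2 fold change ran from -0.59 to 0.11 for Tff3, positive without W89S, and from -0.16 to 0.75 for Clca1, negative without K82S (-0.16) and without K82S and W83S together (-0.20). Muc2, Fcgbp and Zg16 stayed positive and Agr2, Spdef and Spink4 negative under all 19, with adjusted p from limma of 0.304 to 0.76 for Muc2, 0.0775 to 0.76 for Fcgbp and 0.0497 to 0.78 for Spink4. Scaling libraries to equal sums moved the median log2 fold change of all rows from -0.06 to 0.08. The scaling to pan-epithelial genes, the median without Muc2 the overlap counts without single libraries and the list sums without the most abundant gene were added after the data were seen. The causes of these moves were not tested. No paired analysis was possible because the library names carry no numbers shared between the groups, although the study speaks of matched pairs.

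Few genes below 1 FPKM in W83S have a settled row, which leaves out 4 of the 21 glycosylation enzymes and some markers of other cells. The unknown read counts and 3 mice per group limit all comparisons.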

Other observations

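Genes of T cells and intraepithelial lymphocytes, which border the goblet cells in the epithelium, were higher in each KO library for 8 of 8 settled genes, against 5.9% of all rows, with a median log2 fold change of 0.76. This was 7 of 8 when libraries were scaled to pan-epithelial genes, against 3.58% of all rows, and 0 of the 8 passed the thresholds. The granzyme Gzma had 98.8 (K79S), 147 (K82S) and 99.8 FPKM (K86S) against 76.2 (W83S), 46.5 (W89S) and 63.6 FPKM (W90S) (log2 fold change 0.89, limma, Benjamini-Hochberg adjusted p = 0.393). Gzmb had 34.3, 39.3 and 35.5 FPKM in the KO libraries and 22, 11.7 and 18.2 FPKM in the WT libraries (1.07, adjusted p = 0.393 from limma). Here K82S and W89S, the libraries highest in most mucus genes, lay at opposite ends.

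Of the genes that carry type 2 cytokine signals to goblet cells, 6 of 10 were settled, 3 with positive and 3 with negative fold changes. Il4ra and Il13ra1, receptor chains for IL-4 and IL-13 that were named after their values were seen, did not overlap, against 5.9% of all rows higher in KO. Il4ra had 12.1, 16.1 and 12.5 FPKM in the KO libraries and 10.6, 11.2 and 11.2 FPKM in the WT libraries (log2 fold change 0.27, adjusted p = 0.458 from limma). Il13ra1 had 30.6, 33.9 and 36.2 FPKM in KO and 25.4, 22 and 28.6 FPKM in WT (log2 fold change 0.40, adjusted p = 0.393 from limma). With libraries scaled to equal sums or by median ratios, 3 of the 6 were higher in every KO library, against 14.3% and 9.32% of all rows. Scaled to pan-epithelial genes, 0 of the 6 were without overlap. Il18, the most abundant of the list and not itself a type 2 cytokine, had 20 (K79S), 18.9 (K82S) and 39.7 FPKM (K86S) against 61 (W83S), 27.1 (W89S) and 58.5 FPKM (W90S), with overlap. Of the Notch genes that hold back the goblet fate, 4 of 8 were settled, 2 with positive and 2 with negative fold changes. The Notch target Hes1 had 11.2, 6.78 and 5.74 FPKM in the KO libraries and 12, 6.96 and 8.25 FPKM in the WT libraries.

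All 6 settled genes of proliferating crypt cells had negative fold changes (median -0.62), and 0 of them passed. Of the 6, 2 were lower in every KO library, Olfm4 and Mcm6, against 11.3% of all rows, and the rest overlapped. Scaled to the pan-epithelial genes it was 4 of 6, against 14% of all rows. Olfm4, a marker of crypt stem cells, had 3.98 (K79S), 20.1 (K82S) and 12.8 FPKM (K86S) against 24.8 (W83S), 45.6 (W89S) and 61.3 FPKM (W90S), without overlap (log2 fold change -1.90, adjusted p = 0.393 from limma).

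In the remaining lists 0 genes passed as well. The median log2 fold change was 0.38 over 6 tuft cell genes, -0.21 over 8 enteroendocrine genes, 0.29 over 4 colonocyte genes, 0.01 over 10 enterocyte genes, 0.05 over 10 pan-epithelial genes, 0.11 over 4 smooth muscle genes and -0.18 over 5 genes of plasma and B cells. Of the gastric and pancreatic genes 3 and 2 passed the filter on low expression, with medians of -4.71 and -2.53 and the highest sums of both lists in W83S.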
